A study of Mus musculus with 4 samples.

Results

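Cyp26a1 and 8 other genes of retinoid metabolism and signalling were followed in mouse liver, on the 16 probes and 25 spots that carry their symbols in the authors' deposited table. The whole array held 21240 named genes on 41174 probes and 43379 spots. The 9 genes are Cyp26a1, Cyp26b1, Rara, Rarb, Rarg, Rxra, Lrat, Aldh1a1 and Dhrs3. They were chosen by their role in retinoid biology after the mutant over wild-type ratios of these same arrays, among which Cyp26a1 stood out, had been seen. Their values are therefore given as a description. Counts of members past a threshold set over all probes, and the authors' adjusted p-values, are printed as part of that description and support nothing about the members. All 16 probes passed the filter on dim probes, which kept 39080 of the 41174.

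The samples were livers of 4 male C57Bl/6 mice with a mutant Wrn gene, which encodes a RecQ-type DNA helicase. They were 3 months old and had drunk water with 0.4% vitamin C from weaning. They were set against livers of 4 wild-type C57Bl/6 males of the same age that received no vitamin C. RNA of each mutant was labelled with Cy5 and hybridised together with the Cy3-labelled RNA of 1 wild-type animal, on 4 two-colour arrays. The series describes the arrays as independent biological replicates, and the labels do not say which Wrn allele the mutants carry. No dye was swapped, and no untreated mutant or vitamin C-treated wild-type liver was analysed here. Genotype, vitamin C and dye therefore cannot be told apart in any ratio.

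The liver takes up dietary vitamin A and stores most of it as retinyl esters in hepatic stellate cells. Retinol and retinal are interconverted by dehydrogenases and reductases, and aldehyde dehydrogenases oxidise retinal irreversibly to retinoic acid, the ligand of the nuclear receptors RAR. An RAR paired with an RXR binds direct repeats of a short hexamer in DNA and activates transcription once ligand is bound. Cyp26 enzymes hydroxylate retinoic acid and so remove it, and Cyp26a1 and Rarb are textbook genes that retinoic acid itself induces through such repeats in their promoters.

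The letters of those repeats and of the Cyp26a1 probe are shown because the strongest ratio and the best-known response elements of the set belong to these 2 genes. Promoter sequences are from RefSeq, build GRCm38.p6, and run from 250 bases before to 50 bases after the annotated start, 5′ to 3′ in the direction of the gene. Capitals mark a direct repeat of 2 hexamers with 5 bases between them, searched on both strands. Each hexamer could be AGGTCA, the consensus form in textbooks. It could also be AGTTCA, the form found in the Cyp26a1 window. Further forms allowed were GGTTCA, which the Rarb window holds, and finally GGGTCA. Both genes were known to hold such repeats when the forms were chosen, so their matches are no finding of the search. The Cyp26a1 window is chr19:37697558-37697857 on the plus strand, and the Rarb window is chr14:16575427-16575726 on the minus strand. The probe is a designed oligonucleotide of 60 bases, taken from the scanner files, with no part in capitals.
Cyp26a1 promoter: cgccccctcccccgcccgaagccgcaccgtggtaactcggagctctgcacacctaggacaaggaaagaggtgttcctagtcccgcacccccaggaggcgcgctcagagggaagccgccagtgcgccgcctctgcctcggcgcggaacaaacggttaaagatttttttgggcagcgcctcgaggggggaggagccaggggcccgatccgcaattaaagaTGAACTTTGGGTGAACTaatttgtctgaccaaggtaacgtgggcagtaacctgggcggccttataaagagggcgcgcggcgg
Rarb promoter: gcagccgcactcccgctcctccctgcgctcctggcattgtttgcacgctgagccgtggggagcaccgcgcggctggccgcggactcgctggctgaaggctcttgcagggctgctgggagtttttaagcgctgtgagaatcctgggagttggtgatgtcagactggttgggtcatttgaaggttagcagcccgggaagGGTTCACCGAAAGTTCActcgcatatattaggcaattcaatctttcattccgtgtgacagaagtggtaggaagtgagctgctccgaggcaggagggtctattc
Cyp26a1 probe: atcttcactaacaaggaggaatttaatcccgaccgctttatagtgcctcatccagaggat

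In Cyp26a1 the repeat lies 32 to 16 bases before the start and is read on the opposite strand, as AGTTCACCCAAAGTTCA. In Rarb it lies 53 to 37 bases before the start on the gene's own strand, as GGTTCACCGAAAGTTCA. The 2 elements are identical at 15 of 17 bases. Among 32851 windows of this length, 32 held the repeat (0.0974%), which comes to 31 of 27025 genes (0.115%). Of 63 other retinoid pathway genes with a window, 0 had it, and of the 9 retinoid genes only these 2, for which the match was known beforehand. A match is a string of letters and not a measured binding site, and 0 says only that these letters are not in the window.

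The mutant channel had between 82.8% and 95.7% of probes well above background and the wild-type channel between 84.5% and 96.2%, with array 1 the lowest in both. Precision is limited by the number of arrays, which was 4. Ratios below are log2 of mutant over wild type after background correction and loess normalization within arrays, and ± is the SD over the 4 arrays. Levels are log2 intensities of each channel and are not comparable between probes. For 1 probe they can be compared between animals only roughly. The 2 channels of an array tended to deviate together from their group means, correlated at 0.672 to 0.942, and dye goes with genotype. Over all probes, 13% passed a limma test at an adjusted p under 0.05, 6.19% higher and 6.79% lower in the mutant. Of these 5076 calls, 2421 were higher (47.7%). With median centring in place of loess, 4292 of 7303 were higher (58.8%), and with Agilent's processed signals 465 of 1340 (34.7%). Of the 16 retinoid probes, 2 were among those 5076, the probes of Cyp26a1 and Aldh1a1, and nothing is read from this count. The defining hepatocyte markers were measured well above background on all arrays.

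Cyp26a1, the main enzyme that clears retinoic acid in liver, had the highest mean ratio of the set. Its ratios on arrays 1 to 4 were 1.56, 1.72, 0.04 and 2.90, which gives a mean of 1.56 ± 1.17 (SD, n = 4) or 2.94-fold. The livers of the Wrn mutants thus had more signal than their array partners on 3 arrays and nearly the same signal on array 3. Only 0.00256% of kept probes had a larger mean ratio, and only 0.0589% a larger SD.

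The levels show which animals made up that spread. Cyp26a1 stood at 12.75, 12.45, 11.18 and 13.32 in the mutants of arrays 1 to 4, against 11.19, 10.73, 11.14 and 10.42 in the wild-type animals. The mutant of array 3 lay within the wild-type values, just under the wild-type animal of array 1, so the groups overlapped in this 1 animal. The mutant mean was 12.42 ± 0.90 and the wild-type mean 10.87 ± 0.36 (SD, n = 4 each). The mutants spanned 2.14 and the wild-type animals 0.77. In the authors' deposited table the 4 ratios were 1.58, 1.75, 0.05 and 2.95, with a mean of 1.58 and an adjusted p of 0.0583. Without array 3 the mean was 2.06, and without array 1, 2 or 4 it lay between 1.11 and 1.55.

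Cyp26b1, the related retinoic acid hydroxylase, moved in both directions. Its ratios were 0.14, -0.67, -0.94 and 1.48, a mean of 0.00 ± 1.09 (SD, n = 4). Its levels were 11.12, 10.64, 10.85 and 12.11 in the mutants, against 10.98, 11.32, 11.79 and 10.63 in the wild-type animals. The mutant of array 4 had the highest level and the wild-type animal of array 3 the next highest, and the groups overlapped. The mean of about 0 therefore averages large opposite differences, since only 0.0742% of kept probes had a larger SD. Without array 4 the mean was -0.49. In whole liver, fewer cells of a type and less RNA per cell cannot be told apart.

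**Figure D1:**
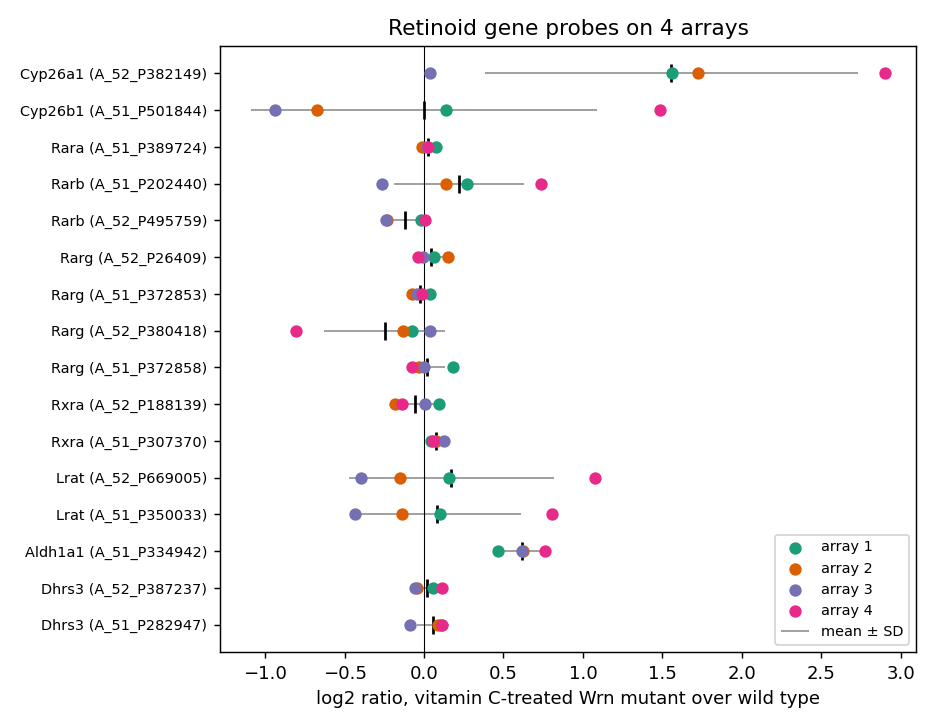
Log2 ratio of vitamin C-treated Wrn mutant over wild type (x axis) for each of the 16 probes (y axis), with 1 coloured point per array and the mean ± SD over 4 arrays as tick and line. Array 4 lies far to the right for Cyp26a1 (2.90), Cyp26b1 (1.48) and Lrat (1.08), array 3 far to the left, and the Rara and Rxra points lie close to 0.

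Lrat, which esterifies retinol for storage and is made by stellate cells in liver, was read by 2 probes that ran alike. The probe A_52_P669005 gave ratios of 0.16, -0.15, -0.40 and 1.08, a mean of 0.17 ± 0.65 (SD, n = 4). Its levels were 11.72, 11.05, 11.01 and 11.65 in the mutants, against 11.56, 11.21, 11.41 and 10.57 in the wild-type animals. The lowest of these 8 levels was that of the wild-type animal of array 4, and the groups overlapped.

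The second Lrat probe, A_51_P350033, gave ratios of 0.10, -0.14, -0.44 and 0.81, a mean of 0.08 ± 0.53. Its levels were 9.69, 9.80, 9.78 and 10.22 in the mutants, against 9.59, 9.94, 10.22 and 9.42 in the wild-type animals. Both probes thus put arrays 4, 1, 2 and 3 in the same order from high to low. Without array 4 their means were -0.13 and -0.16, against 0.17 and 0.08 with it. Larger SDs occurred in 0.361% and 0.745% of kept probes.

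Taken as a list, the stellate cell markers had another order over the arrays than Lrat. Of 12 stellate markers (such as Reln, Des and Gfap), 0 passed the limma test, against 13.6% of all genes. Of these 12 markers 1 had an unadjusted p under 0.05. The test is of the mean over the arrays, so it cannot show opposite differences between arrays. Neither Lrat probe passed it. The mean ratio of the stellate markers was -0.24, 0.05, -0.04 and 0.05 on arrays 1 to 4, with a median over genes of -0.06. Their mean level lay between 10.7 and 10.8 in the mutants and between 10.7 and 10.9 in the wild-type animals. Single markers differed from that mean. For Reln, Pdgfra and Dcn the mutant of array 4 had the highest mutant level and its partner the lowest wild-type level. The other stellate markers did not have both. The part of stellate cells in the Lrat values was not tested.

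**Figure D2:**
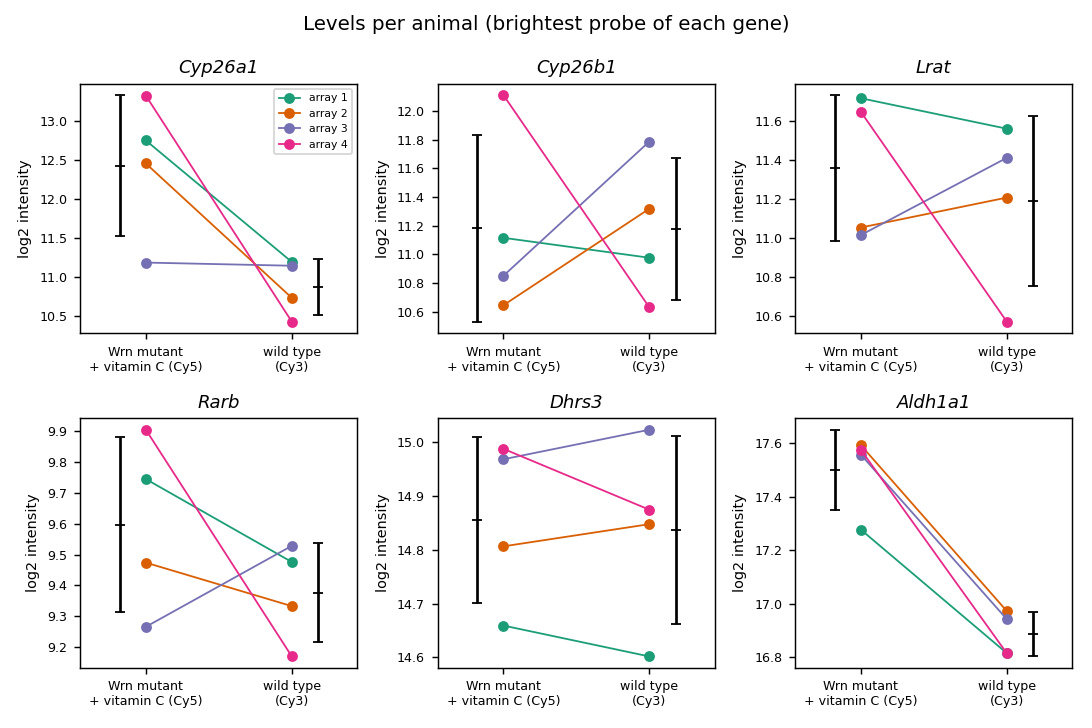
Log2 intensity (y axis, scale set per gene) of 6 genes in the vitamin C-treated Wrn mutants (left, Cy5) and the wild-type animals (right, Cy3), with lines joining the animals of 1 array and bars for the mean ± SD of 4 animals. The wild-type animal of array 4 is the lowest wild type for Cyp26a1, Cyp26b1, Lrat and Rarb, and the mutant of array 3 is at wild-type level for Cyp26a1.

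Aldh1a1, which oxidises retinal to retinoic acid, was the member with the most even difference. Its ratios were 0.46, 0.62, 0.62 and 0.76, a mean of 0.62 ± 0.12 (SD, n = 4) or 1.53-fold. Its levels were 17.28, 17.59, 17.56 and 17.58 in the mutants, against 16.81, 16.97, 16.94 and 16.81 in the wild-type animals. Every mutant was above every wild-type animal. It was the 1 member probe whose levels did not overlap. Levels did not overlap for 7.18% of all probes, and for 2.9% with the mutants higher. In the authors' deposited table the adjusted p of Aldh1a1 was 0.0160. The size of the ratio depended on the normalization of this bright probe: it was 1.20 with median centring and 0.41 with Agilent's processed signals. Aldh1a7, a close paralog whose transcript could share signal with the Aldh1a1 probe, had ratios with a mean of 0.19 ± 0.17 and a limma adjusted p of 0.112. Cross-hybridisation between the paralogs was not tested.

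Dhrs3, which reduces retinal back to retinol, stayed near 0 on both probes after loess normalization. The probe A_52_P387237 gave 0.06, -0.04, -0.05 and 0.11, a mean of 0.02 ± 0.08 (SD, n = 4). The probe A_51_P282947 gave 0.11, 0.09, -0.09 and 0.12, a mean of 0.06 ± 0.10. The levels of the first were 14.66, 14.81, 14.97 and 14.99 in the mutants, against 14.60, 14.85, 15.02 and 14.87 in the wild-type animals, which overlapped throughout. Dhrs3 is another gene that retinoic acid is known to induce, yet it held none of the searched repeats in its windows.

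The retinoic acid receptors were measured by 7 probes. Rarb had the widest ratios on its 10-spot probe A_51_P202440, at 0.27, 0.14, -0.26 and 0.73, a mean of 0.22 ± 0.41 (SD, n = 4). Its levels were 9.74, 9.47, 9.27 and 9.90 in the mutants, against 9.48, 9.33, 9.53 and 9.17 in the wild-type animals. As for Cyp26a1, the mutant of array 4 was the highest and the mutant of array 3 the lowest of the mutants, and the wild-type animal of array 4 was the lowest of the wild-type animals. A larger SD was found in 1.55% of kept probes.

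The second Rarb probe, A_52_P495759, gave smaller ratios of -0.02, -0.23, -0.24 and 0.01, a mean of -0.12 ± 0.13. It was designed on a different transcript record, and its levels lay between 7.32 and 7.83 in the mutants, against 7.56 and 7.84 in the wild-type animals. The 2 Rarb probes thus had means of opposite sign, while both had array 4 highest and array 3 lowest.

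Rara, the receptor found in most tissues, was read by 1 dim probe at 0.07, -0.01, 0.02 and 0.03, a mean of 0.03 ± 0.04. Its levels lay between 7.25 and 7.51 in the mutants, against 7.26 and 7.43 in the wild-type animals. The probe showed a smaller spread than most, as 94.8% of kept probes had a larger SD.

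Rarg was read by 4 probes. The probe A_52_P26409 had a mean of 0.04 ± 0.08, A_51_P372853 a mean of -0.02 ± 0.05 and A_51_P372858, which was well above background on 3 of 4 arrays in each channel, a mean of 0.02 ± 0.11 (SD, n = 4). The fourth, A_52_P380418, differed, with ratios of -0.08, -0.13, 0.04 and -0.81 and a mean of -0.25 ± 0.38. Its levels were 8.94, 8.60, 8.75 and 8.92 in the mutants, against 9.01, 8.74, 8.71 and 9.73 in the wild-type animals. A single animal, the wild type of array 4, stood above the others on this probe, and the other 3 Rarg probes did not show it.

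The probe A_51_P372853 showed another kind of variation. Its levels were 10.72, 9.40, 10.01 and 9.79 in the mutants, against 10.69, 9.48, 10.05 and 9.80 in the wild-type animals. Mutant and wild type of each array were close to each other while the arrays differed, so the spread of 1.32 in the mutants and 1.21 in the wild-type animals cancelled in the ratios.

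Rxra, the shared partner of the RARs and of many other nuclear receptors, was flat on both probes after loess normalization. The probe A_52_P188139 gave 0.09, -0.18, 0.01 and -0.14, a mean of -0.06 ± 0.13 (SD, n = 4). The probe A_51_P307370 gave 0.04, 0.08, 0.13 and 0.06, a mean of 0.08 ± 0.04, above 0 on 4 of 4 arrays. Levels of the second lay between 11.11 and 11.26 in the mutants and between 11.05 and 11.18 in the wild-type animals, and overlapped. The means depended on the normalization. On A_52_P188139 the mean was 0.36 with median centring and -0.20 with Agilent's processed signals. On A_51_P307370 it was 0.14 and 0.08.

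An order over the arrays recurred among the members and was noticed after their values had been seen. Array 4 had the highest and array 3 the lowest ratio on 8 of 16 retinoid probes, namely all probes of Cyp26a1, Cyp26b1, Rarb, Lrat and Dhrs3. None of the probes of Rara, Rarg, Rxra or Aldh1a1 had this order. Over all kept probes measured on 4 arrays, 2923 of 38927 had it (7.51%). The probes of 1 gene share their transcript and the ratios share their animals, so the count is a description and no test was made.

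The wide spread was rarer still. A range over the arrays above 1 was found in 481 of 38927 probes (1.24%), and together with this order in 33 (0.0848%). Those 33 included 4 retinoid probes, of Cyp26a1, Cyp26b1 and Lrat (2 probes), and 27 named genes in all. Retsat, retinol saturase, was among them with ratios of 0.06, 0.44, -0.55 and 0.52. So were Slc17a8, a vesicular glutamate transporter, at 0.82, 0.78, 0.24 and 1.42, and Ntrk2, a neurotrophin receptor, at 1.23, 0.91, -0.77 and 1.24. The list also held the bile acid-responsive receptor gene Nr0b2 and the carboxylesterase genes Ces2b and Ces2c, each of the esterases on 2 probes.

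The order was also looked for in the other retinoid pathway genes. It was found in 12 of 81 genes (14.8%), namely Rbp4, Crabp1, Dgat1, Awat2, Ces1e, Rdh10, Dhrs4, Adh4, Retsat, Rxrb, Nr1h4 and Rarres2. These genes were taken by their brightest probe, whereas the 7.51% above counts all kept probes, so the 2 shares are not like measures. They were not tested against each other. Among 66 cell type, zonation and acute phase marker genes it was found in 1, Hnf4a (1.52%), and among the 12 stellate markers in 0. With so few stellate markers, 0 cannot be told from the 7.51% of all kept probes.

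**Figure D3:**
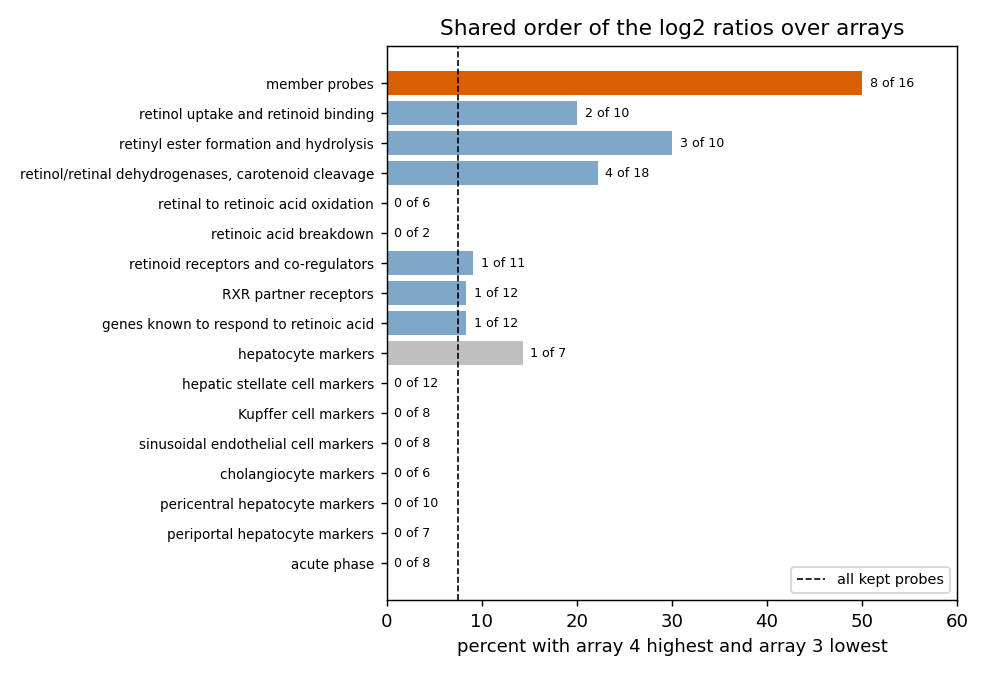
Percent of probes or genes (x axis) whose log2 ratio was highest on array 4 and lowest on array 3, for the retinoid members (top bar, probes), the other pathway lists and the marker lists (bars, 1 probe per gene), with counts beside the bars and all kept probes as the dashed line at 7.51%. The members stand at 8 of 16, counted by probe and noticed after their values were seen. Of 12 stellate cell markers 0 have the order, too few genes to tell 0 from 7.51%.

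Both animals of array 4 contributed to the order on the Cyp26a1, Cyp26b1 and Lrat probes and on Rarb A_51_P202440. The wild-type animal had the lowest wild-type level of Cyp26a1, Cyp26b1, both Lrat probes and Rarb A_51_P202440. The mutant had the highest mutant level of the same probes except Lrat A_52_P669005, where the mutant of array 1 was higher at 11.72 against 11.65. On both Dhrs3 probes, which had the order too, the wild-type animal of array 4 was not the lowest wild type. The same wild-type animal had the highest wild-type level of 8 of 8 acute phase genes. Saa1, a serum amyloid A protein, was at 15.56 in the mutant of array 4 and at 19.76 in its wild-type partner. Over the acute phase list the mean ratio was -0.49, -1.23, -0.86 and -2.97 on arrays 1 to 4, with mean levels between 13.6 and 14.8 in the mutants and between 14.3 and 17.8 in the wild-type animals. Of that list 4 of 8 genes passed the limma test, all lower in the mutant, against 6.63% of all genes lower. The part of the acute phase difference in the retinoid values was not tested.

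Markers of the liver zones moved as well. Of 10 pericentral hepatocyte markers 4 were lower and 0 higher by the limma test, with a median ratio of -0.25, and of 7 periportal markers 2 were higher and 0 lower, with a median of 0.32. Hepatocyte markers were higher in 4 and lower in 1 of 7. Of 8 sinusoidal endothelial markers 2 were lower, and of 6 cholangiocyte markers 2. Kupffer cell markers passed in 0 of 8, with 0 at an unadjusted p under 0.05. Yet their mean ratio was 0.26, -0.10, 0.25 and -0.46 on arrays 1 to 4, so opposite differences averaged out. The wild-type animal of array 4 had the highest wild-type level of each Kupffer marker, tied with array 3 for Timd4. Over all genes 13.6% passed, 7.01% higher and 6.63% lower. These marker calls rest on the brightest probe of each gene. Tbx3, the pericentral marker of lowest ratio (-0.90), was called higher on its other probe (0.17). Slc1a2, also pericentral, was called lower on 1 of its other probes. The endothelial marker Clec4g (-0.35) had 0.04 to 0.11 on its other probes. Hnf4a (-0.25), the lower hepatocyte marker, had -0.15 to -0.01 on its other probes. The cholangiocyte marker Sox9 (-0.58) had -0.23 to 0.01, and the pericentral marker Cyp1a2 (-0.42) had -0.21. None of these other probes of Hnf4a, Sox9 and Cyp1a2 was called. The part of these markers in the retinoid values was not tested.

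Likeness of level to Cyp26a1 was measured as Pearson's r over the 8 channels, in 18950 genes well above background in all channels. This r includes the difference between the groups, so a gene that is merely higher in the mutants can have a high r. A gene was taken by its probe of most extreme r. The 5 most like genes were Usp13 (r = 0.976), Cd59a (0.970), Arfrp1 (0.968), Sgpp2 (0.959) and Dtymk (0.958). Of these 5, Cd59a alone passed the limma test. Levels of Cyp26a1 spanned 2.14 in the mutants and 0.77 in the wild-type animals. Those of the dim gene Usp13 spanned only 0.12 and 0.04, and those of Sgpp2 0.15 and 0.02. The 5 most unlike were Ncor1 (-0.953), Sptan1 (-0.939), Uhrf1bp1l (-0.938), Vps13c (-0.933) and Lgals4 (-0.933). The channels share arrays, and dye goes with genotype, so these values describe the 8 channels and carry no p.

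Among the members Rarb on its 10-spot probe was the most like Cyp26a1, with r = 0.889, and 0.255% of the compared probes had a higher r. Aldh1a1 followed with r = 0.727 (3.52% higher), a value that includes its difference between the groups. Among the mutants Aldh1a1 was lowest on array 1 and Cyp26a1 on array 3. Lrat had 0.625 and 0.39 on its 2 probes and Cyp26b1 had 0.394 (18.4% higher). Dhrs3 had 0.563 on A_51_P282947 (9.52% higher) and -0.0636 on its other probe. Rxra on A_52_P188139 was the lowest member at -0.534. The second Rarb probe, A_52_P495759, had only 0.0711 (44.2% higher), so the 2 Rarb probes differed in their likeness to Cyp26a1. Of the 31 genes with the repeat, 8 had a kept probe, and 1 of these passed the threshold (12.5%, against 13.6% of all genes). That 1 gene was Cyp26a1 itself, so the count adds nothing about the repeat.

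The other genes of the pathway were taken from 8 lists of 85 genes, of which 81 had a kept probe, and the brightest probe stood for a gene. Rbp4 and Ttr, which carry retinol in plasma, were higher in the mutants, and the lipase Pnpla2, the dehydrogenase Rdh9 and the receptors Rxrb and Ppara were lower, Ppara not with median centring. In all, 4 genes were higher, 5 lower and 72 not past an adjusted p of 0.05 in limma. That is 11.1%, against 13.6% of all genes (7.01% higher and 6.63% lower), so the share called in the pathway was near that of the array. The median ratio was -0.03 in the pathway and 0.01 over all genes. None of the called genes differed by 1.5-fold or more. With median centring 14 genes were higher and 1 lower. Rbp4, Ttr and Rarres2 then had larger ratios of 1.13, 0.83 and 0.91, and the calls of Pnpla2, Rdh9, Rxrb, Ncor1 and Ppara were lost. With Agilent's processed signals 1 gene was higher and 0 lower. Rbp4, Ttr and Rarres2 then had smaller ratios of 0.27, 0.28 and 0.20 and did not pass. The number called changed with the arrays used: without array 2 it was 0 in limma, with 24 genes at an unadjusted p under 0.05, and without arrays 1, 3 and 4 it was 2, 5 and 2.

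Retinol uptake and retinoid binding had 10 measured genes, of which 2 rose, 0 fell and 8 did not pass. Rbp4, the plasma carrier of retinol, had ratios of 0.55, 0.31, 0.16 and 0.93, a mean of 0.49 ± 0.34 (SD, n = 4) with a limma adjusted p of 0.0423, and every mutant was above every wild-type animal. Ttr, transthyretin, which binds the Rbp4 complex in plasma, had 0.28, 0.35, 0.43 and 0.77, a mean of 0.46 ± 0.22 with a limma adjusted p of 0.0224, again with no overlap. Ttr is also 1 of the hepatocyte markers counted above.

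Among 10 genes of retinyl ester formation and hydrolysis, 0 were higher and 1 was lower in limma, with 4 higher and 1 lower at an unadjusted p under 0.05. Pnpla2, adipose triglyceride lipase, was lower on all 4 arrays, with a mean of -0.34 ± 0.03 (SD, n = 4) and a limma adjusted p of 0.0118, and its second probe had a mean of -0.23 and passed too. Among 18 dehydrogenase, reductase and carotenoid cleavage genes, 0 were higher and 1 lower. This was Rdh9, a retinol dehydrogenase, at -0.22 ± 0.04 with a limma adjusted p of 0.0276, but its second probe had a mean of 0.01.

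No gene of retinoic acid formation other than the member Aldh1a1 passed. Of 6 genes that oxidise retinal, 0 passed limma and 2 had an unadjusted p under 0.05. Aldh1a3, a retinal dehydrogenase, had a mean of 0.13 ± 0.05 with a limma adjusted p of 0.0883, and Aldh1a7 is given above. Of 2 further genes of retinoic acid breakdown 0 passed, with 1 at an unadjusted p under 0.05. Por, the reductase that supplies electrons to P450 enzymes, had a mean of -0.31 ± 0.28 with a limma adjusted p of 0.0802. Cyp2c39, a mouse P450 that hydroxylates retinoic acid, had 0.22 ± 0.39 with 0.299.

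Of 11 further receptors and co-regulators, 0 were higher and 2 lower, and both calls rest on the probe. Rxrb had a mean of -0.22 ± 0.09 (SD, n = 4) with a limma adjusted p of 0.0371, and -0.03 on its other probe. Ncor1, the co-repressor that RARs without ligand recruit, had -0.21 ± 0.09 with 0.0409, while its 6 other probes had means from -0.26 to 0.03 and 2 of these were lower.

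Of 12 partners of RXR, 1 was higher and 1 lower. Thrb, a thyroid hormone receptor, had a mean of 0.25 ± 0.11 with a limma adjusted p of 0.0340 on its brightest probe, but 2 of its other probes were lower at -0.28, and the mean of its probes was -0.07. Its direction is therefore not settled by these probes. Ppara, the receptor that drives fatty acid oxidation, was lower at -0.21 ± 0.10 with a limma adjusted p of 0.0452. With median centring its ratio was above 0, at 0.17.

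Of 12 genes known to respond to retinoic acid, other than the members, 1 was higher and 0 lower in limma, with 1 higher and 3 lower at an unadjusted p under 0.05. Rarres2, which encodes the adipokine chemerin, had a mean of 0.34 ± 0.21 (SD, n = 4) with a limma adjusted p of 0.0390, and 0.13 on its other probe, which did not pass. When the mean of a gene's probes was tested in place of the brightest, 4 genes of the pathway passed, Ttr, Pnpla2, Ppara and the co-regulator Nrip1. Rbp4 then had a limma adjusted p of 0.0505, and Rdh9, Rxrb, Ncor1, Thrb and Rarres2 had adjusted p from 0.0853 to 0.258.

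**Figure D4:**
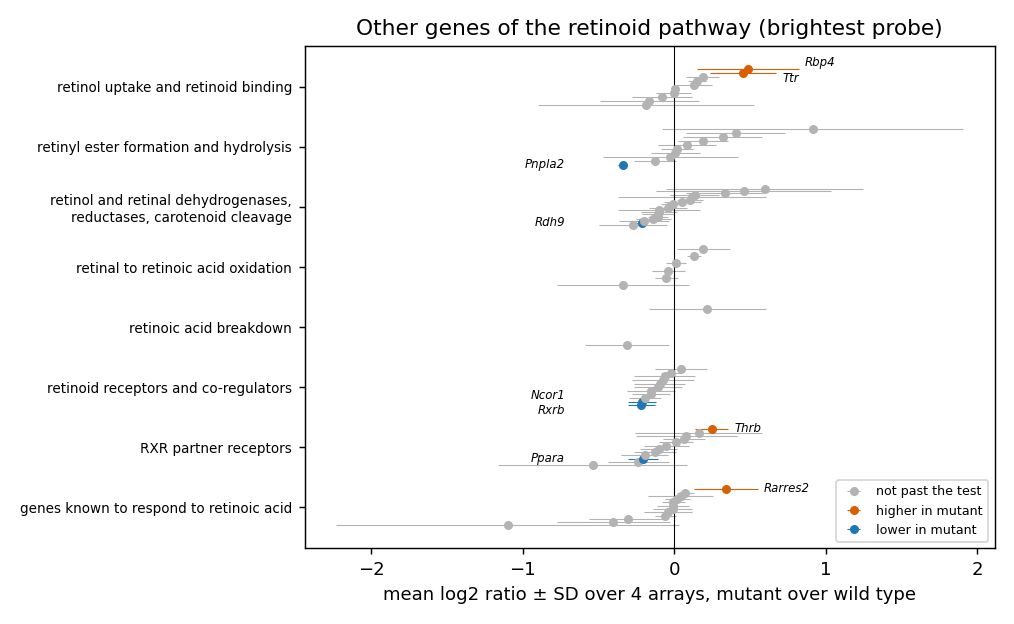
Mean log2 ratio of vitamin C-treated Wrn mutant over wild type ± SD over 4 arrays (x axis) for the brightest probe of 81 retinoid pathway genes in 8 lists (y axis), with genes past an adjusted p of 0.05 in limma coloured and named (Ppara is above 0 with median centring). The 4 higher and 5 lower genes all lie within 0.5 of 0, and most genes are grey.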

How the data were processed

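Liver RNA of 4 vitamin C-treated Wrn mutant and 4 untreated wild-type mice was hybridised to 4 arrays, with the mutant in Cy5 and the wild type in Cy3 per the labels. Per the file headers, the spots were read by Agilent Feature Extraction 10.5.1.1, and the design's annotation used mm9. The deposited scanner output gives each spot's median intensity and background intensity, its processed signals and a log10 ratio of red over green. The authors' deposited table adds log2 ratios per array with their mean, a p-value before and after adjustment, and other scores such as a signed fold change. The submitters' processing notes name limma without a version.

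From the median intensity values, background was corrected with normexp (offset 50) and ratios were normalized by loess within arrays, using limma 3.58.1 under R 4.3.3. After removal of control and outlier spots, the spots of a probe were averaged. Probes well above background in 1 channel on at least 3 arrays were kept. Levels were taken after loess and Aquantile normalization. Probes were named by accession, current or older symbol from a RefSeq gene table of GRCm38.p6, and 15% had no name. The test of each ratio against 0 used limma's lmFit and eBayes. Its p-values were adjusted by Benjamini-Hochberg over all 39080 probes, and 20668 genes were counted by their brightest probe. The fit was tested on simulated data.

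Members and gene lists were chosen with earlier results of these data known. Besides the members, the text names up to 3 genes per pathway list and direction past the threshold, or else the 2 of smallest p, and the 5 genes most and least like Cyp26a1. Other genes were named after their values had been seen. Animals of the same number share an array, so the ratio is a paired value. Deviations of same-numbered channels from their group means correlated at 0.942, 0.689, 0.672 and 0.721 on arrays 1 to 4. The arrays shared 1 slide and 1 scan time, so no batch could be tested. The log2 ratios of array pairs correlated at 0.394 to 0.589 across genes, which are not independent. Alternatives covered background, normalization, signals, filters, moderation, array weights, the pairing, probe rule, threshold and leaving out each array. Some values of the pathway lists are not reported here.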

Additional observations from a re-analysis of the deposited data

Results flagged for a closer look

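In 71 groups of 4 values among the members, 4 had 1 value far from the other 3, judged by the gap's share of the group's range. Chance alone gives about 1 in 20 such groups. Rara stood at 7.43 in the wild-type animal of array 1, above the other wild-type animals. Rarg on A_51_P372858 stood at 7.14 in the mutant of array 1, above the other mutants. Both probes are dim, and array 1 had the lowest share of probes well above background. Aldh1a1 stood at 17.3 in the mutant of array 1, below the other mutants and still above every wild-type animal. Dhrs3 on A_51_P282947 had a log2 ratio of -0.0902 on array 3, while its other ratios were above 0.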

How the results depend on the processing

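The mean Cyp26a1 ratio lay between 1.55 and 1.66 in the alternatives that kept all arrays, and between 1.11 and 2.06 when 1 array was left out. Over all probes 5076 passed. Agilent's processed signals gave 1340, the fit with no replicate block (channels as unpaired groups) 26, and leaving out 1 array 160 to 2198. Of the member probes 2 passed, a count that, as under each alternative, is a description of probes chosen on these ratios. Median centring gave 4 (Cyp26a1, Rxra, Aldh1a1 and Dhrs3), Agilent's processed signals 0 with 3 at an unadjusted p under 0.05, a trended and robust eBayes 1, and no replicate block 0 with 2 unadjusted. Leaving out 1 array gave 1 to 2: Aldh1a1 passed each time, Cyp26a1 only without array 3. Of the pathway genes 9 passed. Median centring gave 15 (14 higher and 1 lower), Agilent's processed signals 1, no replicate block 0 with 12 at an unadjusted p under 0.05, the mean of a gene's probes 4, and a change of 1.5-fold or more 0, where Pnpla3, Rdh16 and Fgf21 had an unadjusted p under 0.05 in limma. Leaving out 1 array gave 0 to 5. With median centring Por turned to 0.0924 and Ppara to 0.174. The cause of these changes was not tested. The array order was found on 8 of 16 member probes, and on 7 or 8 under other backgrounds, normalizations and the authors' values. Signal over background limits the dim probes of Rara, Rarg A_51_P372858 and Rarb A_52_P495759.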

Other observations

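Some pathway genes outside the named ones varied widely between arrays without passing the limma test, and were chosen after their values were seen. Pnpla3, a lipase that can act on retinyl esters, had log2 ratios of 0.95, 2.31, 0.25 and 0.16 on arrays 1 to 4, all above 0 and highest on array 2. Rdh16, a retinol dehydrogenase, had 0.29, 1.42, -0.08 and 0.76. Fgf21, a liver hormone, had -0.73, -0.26, -2.77 and -0.63, all below 0 and lowest on array 3. These orders over the arrays differ from that of Cyp26a1.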
